A study of Mus musculus with 2 samples.

Results

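Long-read RNA sequencing of mouse gastrocnemius, a calf muscle, was searched for splicing patterns that join annotated splice sites in combinations absent from the annotation. TALON, a program that compares long reads with annotated transcripts, places such models in the class NIC. A chain here is the ordered set of introns of a model, with its chromosome and strand. Members were chosen by their read counts in these same libraries: both had to hold the chain as NIC, with at least 1 read each and at least 5 reads together. Read number and presence in both libraries are therefore no result. This left 1157 chains in 804 genes, out of 13441 NIC chains seen in either library and 75661 chains of any class. Just outside the limit lay 278 chains with 4 reads, and just inside it 180 chains with 5 reads.

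Both libraries came from 1 group: females of the B6CASTF1/J strain, first-generation hybrids of C57BL/6J and CAST/EiJ, aged 36 days. By the labels, the libraries carry separate female numbers under a single donor entry, and each started from 2 µg of total RNA. No condition could be compared, and every test below sets these 2 libraries against each other, with p-values that measure counting error alone. Replicate 1 held 822153 mouse reads and replicate 2 held 1714762. The deeper library therefore gives the smaller counting error. The tissue label matched the markers: 7 of 7 fast-fibre genes were read in each library, at 22.3% of gene reads for replicate 1 and 17.1% for replicate 2. Slow-fibre genes took 0.00176% in replicate 1 (3 of 6 genes with reads) and 0.781% in replicate 2 (6 of 6), and blood genes 0.256% and 0.0554%. Fewer cells of a type and less RNA per cell cannot be told apart in such tissue.

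A spliced messenger RNA is put together by joining exons across introns. Skeletal muscle genes use alternative promoters, cassette exons and mutually exclusive exons to make contractile and metabolic proteins that differ from those of other tissues. A short-read fragment covers few junctions, whereas a long read shows which first exon, inner exons and last exon lie on 1 molecule.

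The class label was checked against the annotation. Of the 1157 chains, 742 used annotated introns of their gene only, and 415 held an intron that joins sites in a pair not annotated for that gene. The name "known sites" did not hold for all: 159 chains in 85 genes used a splice site that no annotated transcript has on that strand. They took 6.13% of the set's reads in replicate 1 and 6.95% in replicate 2. In 151 of the 159, every such site also stood in an NNC model, TALON's class for chains with an unannotated site, of both libraries. The genes with most of them were Myl1 (18), Tnnt3 (14), Atp2a1 (13), Pde4dip (7) and Eno3 (6).

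Short stretches of coding sequence show what set apart several of the most abundant chains. They are GENCODE M21 transcript sequence (mm10, the C57BL/6J reference), 5′ to 3′, since the CAST/EiJ allele was not read here. Capitals mark an annotated exon that the chain lacked, and the line after it gives the chain with both flanks joined. Tnni2 and Tnni1 encode the fast and slow troponin I, the inhibitory subunit of the thin filament, and both stretches start at the annotated start codon.
Tnni2 annotated, exon chr7:142442691-142442697, plus strand: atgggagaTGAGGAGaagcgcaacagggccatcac
Tnni2 chain: atgggagaaagcgcaacagggccatcac
Tnni1 annotated, exon chr1:135803282-135803285, plus strand: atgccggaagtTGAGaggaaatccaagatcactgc
Tnni1 chain: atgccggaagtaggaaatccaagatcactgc
Mpc1 annotated, exon chr17:8293415-8293418, plus strand: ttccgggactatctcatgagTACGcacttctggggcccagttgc
Mpc1 chain: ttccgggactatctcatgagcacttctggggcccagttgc
Sept7 annotated, exon chr9:25264203-25264207, plus strand: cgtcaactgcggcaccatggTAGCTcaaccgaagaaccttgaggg
Sept7 chain: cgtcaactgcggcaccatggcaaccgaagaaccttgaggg
In Oaz1, antizyme 1, the chain was continuous where annotated coding models carry a gap of 4 nt or 1 nt, and capitals mark the 4-nt gap at chr10:80828292-80828295 (plus strand).
Oaz1 chain: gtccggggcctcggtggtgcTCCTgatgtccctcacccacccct
In Myl1, which encodes both essential light chains of fast myosin, the chain joined a 25-nt exon to a 28-nt exon (capitals, chr1:66934246-66934273, minus strand). The annotated model Myl1-202 joins the 25-nt exon (chr1:66934518-66934542) straight to the common exon.
Myl1 chain: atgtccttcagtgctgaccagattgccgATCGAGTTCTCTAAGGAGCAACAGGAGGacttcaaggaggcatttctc
Myl1-202: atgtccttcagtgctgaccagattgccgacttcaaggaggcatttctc

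The 1157 chains held 29762 reads in replicate 1 and 45226 in replicate 2, which were 78.9% and 76.1% of all NIC reads and 3.62% and 2.64% of all mouse reads. A few chains carried most of them. The 3 chains of Aldoa together took 42.0% of the set's reads in replicate 1 and 36.3% in replicate 2, and the 10 largest chains took 68.0% and 66.3%. At the other end, 633 chains had at most 10 reads in all, and the median chain had 4 reads in replicate 1 and 6 in replicate 2. In the 910 chains whose genes reached 20 reads in both libraries (covered genes), the median share of the gene's reads was 4.88% in replicate 1 and 4.26% in replicate 2. A percent of a gene always means a percent of its reads in that library. Of these, 183 exceeded 10% of their gene in both libraries and 22 exceeded 50%. For 90 chains, no other spliced chain of their gene was read more often in either library. Such a lead could rest on a small share. Among these 90, the Mylk4 chain held 31.1% of its gene in replicate 1 but 2.78% in replicate 2. The Phtf2 chain held 8.60% and 3.83%.

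**Figure D1:**
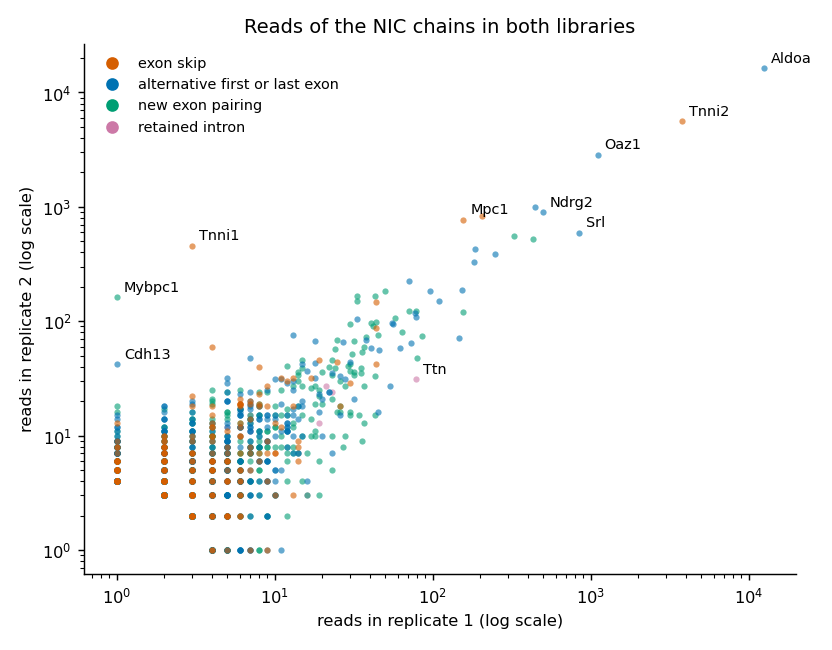
Reads of each chain in replicate 1 (x axis) and replicate 2 (y axis), both on log scales, with 1 point per chain coloured by class. Aldoa, with 12437 and 16348 reads, stands at the top right, while Tnni1, Mybpc1 and Cdh13 lie far to the left with 3, 1 and 1 reads in replicate 1.

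Each chain was placed in 1 class by comparison with the annotated chains of its gene. A retained intron keeps an annotated intron that no annotated exon of the gene covers (22 chains). An exon skip joins 2 annotated sites across at least 1 annotated exon by an intron that is not annotated (216 chains). An alternative first or last exon means that all but the first or last intron form an unbroken part of an annotated chain (453 chains, of which 300 differed at the first intron, 80 at the last and 73 at either). All others are new exon pairings (463 chains), and 3 chains lay in no annotated gene. Signs of more than 1 class were found in 98 chains, which took the first class that fitted in the order given. The class names follow these rules only. Chains of Oaz1, Oaz2 and Phb2 count as alternative ends, although only a gap or exon of a few nt set them apart from an annotated chain.

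Chains and reads were spread differently. Alternative ends held 65.4% of the set's reads in replicate 1 and 62.4% in replicate 2, exon skips 17.6% and 21.2%, new pairings 16.2% and 15.8%, and retained introns 0.793% and 0.451%. Without Aldoa, alternative ends held 40.3% in replicate 1 and 41.0% in replicate 2, and without Tnni2, exon skips held 5.44% in replicate 1 and 9.99% in replicate 2. The division also depends on the catalogue: against annotated chains with a read in these libraries only, alternative ends made up 8.21% of the chains and new pairings 65.4%, in place of 39.2% and 40.0%.

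**Figure D2:**
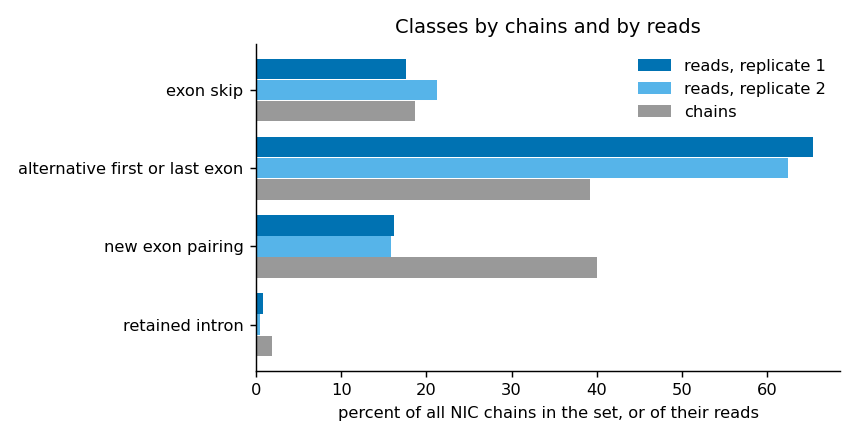
Percent of the reads in each library and percent of the 1157 chains that fell in each class (x axis, percent). The class of alternative first or last exons took over 60% of reads but 39.2% of chains, while new exon pairings took about 16% of reads and 40.0% of chains.

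Of the 742 chains built from annotated introns only, 659 could be laid out as 2 unbroken runs of annotated chains joined end to end, 76 needed 3 runs and 7 needed 4. In all, 748 of the 1157 chains contained a whole shorter annotated chain of at least 2 introns and ran on past it. Among these 748 were 353 of the 453 alternative ends. The first splice site was that of an annotated first exon in 1096 of the 1154 chains of annotated genes (95.0%), and the last was that of an annotated last exon in 1134 (98.3%). Protein-coding genes held 98.0% of the chains, against 98.6% of the 3080 covered genes with an annotated intron. Of these genes, 573 (18.6%) had at least 1 chain of the set.

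Among alternative ends, Aldoa, the aldolase of glycolysis in muscle, led with 12437 reads in replicate 1 and 16348 in replicate 2. These were 84.7% of the gene in replicate 1 and 76.0% in replicate 2. Its chain began in a 45-nt first exon at chr7:126800002-126800046 (minus strand) and then followed all 7 other introns of Aldoa-201. The first intron is annotated in Aldoa-210, a model of 6 introns with no read of its own in either library. Aldoa-201 itself, with another first exon, had 543 reads in replicate 1 and 1754 in replicate 2. The frame of the Aldoa chain from an annotated start codon ran 364 codons to the annotated stop. The gene is known for a promoter used in fast muscle.

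Srl, which encodes sarcalumenin and a shorter glycoprotein of the sarcoplasmic reticulum, gave 841 reads in replicate 1 and 592 in replicate 2. They made up 54.5% of the gene in replicate 1 and 40.5% in replicate 2. The chain joined a first exon at chr16:4522993-4523063 to the common exons and lacked the 1311-nt exon of Srl-201, and its frame ran 473 codons to an annotated stop. The first intron was annotated only in a retained-intron model without reads. Ndrg2, a member of the NDRG family, gave 499 reads in replicate 1 and 901 in replicate 2, or 39.9% and 26.4% of its gene. Its chain kept 14 introns of Ndrg2-201 and differed at the first, and Ndrg2-201 had 427 reads in replicate 1 and 934 in replicate 2.

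Tmed2, a cargo receptor between the endoplasmic reticulum and the Golgi, had 186 reads (82.3% of the gene) in replicate 1 and 425 (86.2%) in replicate 2. The chain contained the whole of the short annotated model Tmed2-203, which had no read, and extended it by an annotated first intron. Mbnl2, a splicing regulator of the muscleblind family, had 148 reads in replicate 1 and 72 in replicate 2 on a chain that differed at the last intron (80.9% and 66.7%). Ctbp1, a transcriptional corepressor, had 154 reads in replicate 1 and 188 in replicate 2 on its leading chain (56.2% and 47.7%). Eno3, the muscle enolase, had 183 reads in replicate 1 and 331 in replicate 2 on a chain with a different first intron, which was 2.36% and 2.08% of its reads.

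The Myl1 chain shown above had 443 reads in replicate 1 and 995 in replicate 2, or 2.47% and 2.66% of the gene. Myl1-202, with the 25-nt exon alone, had 11275 reads in replicate 1 and 23013 in replicate 2. Myl1-201, with the 28-nt exon alone, had 2947 reads in replicate 1 and 5517 in replicate 2. The chain began at the first exon of Myl1-202 and held both short exons, which the abundant models use one at a time. A non-coding model, Myl1-204, holds the same pair without the last intron and had no read. The frame from the start codon of the chain met a stop after 13 codons, within the 28-nt exon.

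Oaz1 and Oaz2 encode antizymes, inhibitors of polyamine synthesis whose decoding is known to need a shift of the ribosome by 1 base. The Oaz1 chain had 1106 reads (94.8% of the gene) in replicate 1 and 2862 (95.4%) in replicate 2, and the Oaz2 chain 250 reads (89.6%) in replicate 1 and 390 (88.0%) in replicate 2. Each matched annotated coding models exactly except that it lacked the gap of 1 nt or 4 nt by which those models step over the shift site. The annotated models from which they differed had no read in either library. The plain frame of the Oaz1 chain, read without a shift, ended after 68 codons, and that of Oaz2 after 32.

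Such tiny differences formed a group of their own. In 17 chains of 14 genes, an annotated exon of at most 14 nt or a gap of at most 4 nt was the only difference from an annotated chain. They held 5501 reads in replicate 1 and 10530 in replicate 2, or 18.5% and 23.3% of the set's reads. The annotated models they differed from had 0 reads in replicate 1 and 1 read in replicate 2. Besides Oaz1, Oaz2, Tnni2, Tnni1, Mpc1 and Sept7, the group held Phb2, a prohibitin of the inner mitochondrial membrane, and Ampd1, the AMP deaminase of muscle. The Phb2 chain lacked a 6-nt exon and had 71 reads (95.9% of the gene) in replicate 1 and 227 (90.8%) in replicate 2. The Ampd1 chain lacked a 12-nt exon and had 18 reads (5.13%) in replicate 1 and 32 (8.31%) in replicate 2.

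Short annotated exons of any gene were counted in the same way. All 13 annotated inner exons of at most 8 nt with at least 20 including or skipping reads in each library were free of including reads. Summed over these exons, there were 5215 skipping reads in replicate 1 and 9669 in replicate 2. A read that skipped more than 1 of them was counted for each. They lie in 10 genes. Exon-skip chains of the set were assigned 4 of the 13, those of Tnni2, Mpc1, Psap and Sept7, and most of these reads belong to Tnni2. Sept7 and Mpc1 each give more than 1 of the 13, as alternatives within 1 intron of the chain, and 1 of each was assigned. The 6-nt exon of Phb2 is also among the 13, and the Phb2 chain, of another class, lacked it. Of 7 exons of 9 to 14 nt, 6 had no including read. For exons of 21 to 29 nt it was 18 of 113 (15.9%), and for exons of 60 nt or more 413 of 16261 (2.54%). Whether the reads held the bases of such exons beside a neighbouring site was not tested, since only models and counts were used.

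**Figure D3:**
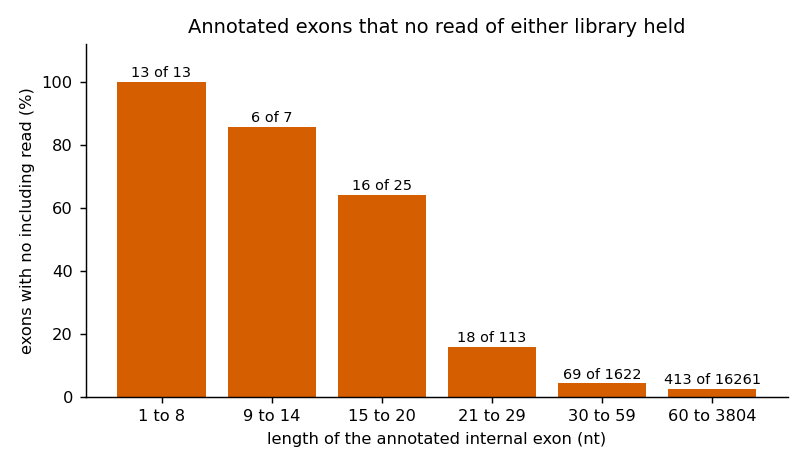
Percent of annotated inner exons with no including read in either library (y axis) by exon length in nt (x axis), with the numbers of exons above the bars. All 13 exons of at most 8 nt lacked an including read, against 2.54% of exons of 60 nt or more.

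Among exon skips, Tnni2 led with 3788 reads in replicate 1 and 5598 in replicate 2, or 70.1% and 57.0% of the gene. Counting every model, its 7-nt exon was skipped by 4395 of 4395 reads in replicate 1 and 7281 of 7281 in replicate 2. A count of 0 allows inclusion in up to 0.0683% of these reads in replicate 1 and 0.0412% in replicate 2 (3 counts of the total). That limit covers counting error only, since none of the 13 exons of at most 8 nt had an including read in any gene. Whether the reads held the bases of the exon beside a neighbouring site was not tested. Without the exon, the frame from the annotated start ended after 15 codons. Mpc1, a subunit of the mitochondrial pyruvate carrier, had 156 reads in replicate 1 and 772 in replicate 2 on its chain (90.2% and 93.2%), and its 4-nt exon was skipped by 158 of 158 reads in replicate 1 and 794 of 794 in replicate 2. Sept7, a septin of the cytoskeleton, had 44 reads (83.0%) in replicate 1 and 87 (86.1%) in replicate 2. Its 5-nt exon was skipped by all 46 reads in replicate 1 and all 90 in replicate 2.

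Idh3b, a subunit of the NAD-dependent isocitrate dehydrogenase, had the most reads among exon skips after Tnni2. Its chain had 206 reads (79.5% of the gene) in replicate 1 and 828 (77.8%) in replicate 2 and joined over a 171-nt exon at chr2:130279556-130279726. No read of 244 in replicate 1 or of 985 in replicate 2 held that exon between introns. The exon is an inner one only in Idh3b-204, annotated as a target of decay, while in the coding model Idh3b-201 it forms part of a longer last exon. Idh3b-201, which shares the other 10 introns, had 2 reads in replicate 1 and 8 in replicate 2, so the chain with the downstream last exon held most of the gene's reads in both libraries.

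Some exons passed over by chains of the set were left out by annotated chains too. Phka1, the muscle regulatory subunit of phosphorylase kinase, lacked a 39-nt exon in 251 of 251 reads in replicate 1 and 154 of 154 in replicate 2, but its chain had only 9 reads in replicate 1 and 1 read in replicate 2. Strn3, a striatin scaffold protein, lacked a 111-nt exon in 103 of 103 reads in replicate 1 and 146 of 146 in replicate 2, with 5 reads in replicate 1 and 8 in replicate 2 on its largest chain. In both genes the annotated models with most reads also lack the exon. Of the 172 skipped exons with enough reads, 10 (5.81%) had no including read in either library. Among all 1983 exons with skipping reads in both libraries, 535 had none.

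Other exons were partly used, counting models of every class. Card19, a mitochondrial protein with a caspase recruitment domain, skipped a 60-nt exon in 84.6% of 65 reads in replicate 1 and 74.4% of 258 in replicate 2, and its leading chain had 44 reads in replicate 1 and 146 in replicate 2. Trdn encodes triadin, the anchor of calcium release proteins in the sarcoplasmic reticulum, and skipped a 30-nt exon in 45.0% of 80 reads in replicate 1 and 55.2% of 96 in replicate 2. In Myl1 the 28-nt exon was skipped in 77.2% of reads in replicate 1 and 78.1% in replicate 2, and the 25-nt exon in 20.0% of reads in replicate 1 and 18.7% in replicate 2. Dctn1, the large subunit of dynactin, gave 44 reads in replicate 1 and 42 in replicate 2 on a chain that passed over 2 annotated exons. The 21-nt exon at chr6:83183936-83183956 was skipped in 98.4% of 129 reads in replicate 1 and 100% of 67 in replicate 2. The other, of 18 nt, had no including read among the 129 and 67. The chain held another 21-nt exon, at chr6:83187764-83187784, absent from its nearest annotated chain. In Ckm, the muscle creatine kinase, the skipped exons were missing from fewer than 0.07% of reads in each library.

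In all, 181 exon-skip chains skipped 1 exon and 35 skipped more, up to 12. The 172 of 245 skipped exons with enough reads had a median of 4.89% skipping in replicate 1 and 5.57% in replicate 2. Of these, 51 were over 10% and 20 over 50% in both libraries. None of the 172 was called between the libraries by Fisher's exact test (two-sided, Benjamini-Hochberg adjusted p under 0.05 and at least 10 percentage points), and 10 had an unadjusted p under 0.05. The background was 0.0499% of the 18041 exons tested and 0.454% of the 1983 with skipping reads in both. With incomplete and Genomic models left out, 1 was called, against 0.0485% of all exons. It was a 33-nt exon of Trdn, skipped in 7.83% of 115 reads in replicate 1 and 33.2% of 190 in replicate 2. Over all models, that exon was skipped in 4.76% of 525 reads in replicate 1 and 6.75% of 1022 in replicate 2.

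The 167 different exons that were skipped singly were shorter than others. Their median length was 102 nt, against 117 nt for the 29421 annotated inner exons of covered genes. Exons under 30 nt made up 7.19% of them against 1.25%, and 35 of the 167 were under 60 nt, a length class with 9.66% of the others. The shortest exons, of at most 8 nt, counted as skipped in every gene where they were tested, as given above. A length that is a multiple of 3 was found in 51.5% against 40.6%, but in 45.5% when only chains with at least 10 reads were taken, and, for coding exons, in 68 of 125 (54.4%) against 43.8% of 6286 in the genes of the set. These shares are descriptions without a test. Exact repeats of at least 6 bases at both ends were found for 2.45% of 204 skipping introns and for 2.04% of 14439 annotated inner exons of the same genes.

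New exon pairings formed the widest class, with 298 chains of annotated introns only and 165 with an unannotated one. Acta1, skeletal muscle actin, gave 329 reads in replicate 1 and 556 in replicate 2 on a chain with an extra 90-nt second exon at chr8:123894422-123894511, which is annotated in a short model without reads. The chain held 0.550% of the gene in replicate 1 and 0.569% in replicate 2, and its frame ran 377 codons to the annotated stop. Eno1, the enolase found in most tissues, gave 78 reads (81.2% of the gene) in replicate 1 and 124 (81.6%) in replicate 2. Its chain used a 59-nt exon at chr4:150241767-150241825 where the annotated full-length chain has another exon of 59 nt at chr4:150242122-150242180, and that annotated chain had 8 reads in replicate 1 and 16 in replicate 2.

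Gpd2, the mitochondrial glycerol-3-phosphate dehydrogenase, gave 155 reads (69.2%) in replicate 1 and 121 (66.9%) in replicate 2. Its chain held all 16 introns of Gpd2-201 and 1 more at the 3′ end, where a site is annotated in no gene. Rilpl1 gave 86 reads (57.7%) in replicate 1 and 75 (51.4%) in replicate 2 on a chain with a 24-nt exon added to Rilpl1-201. Nexn, which encodes nexilin, an actin-binding protein of the Z disc, gave 71 reads (19.9%) in replicate 1 and 123 (8.03%) in replicate 2. Its chain held an 81-nt exon and lacked a 42-nt exon relative to its nearest annotated chain.

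Tnnt3, the fast troponin T known for its many exon combinations, had 14 chains, all new pairings with a site annotated nowhere. The largest had 433 reads in replicate 1 and 525 in replicate 2, or 14.8% and 7.84% of the gene. It used a 39-nt exon in place of an annotated 35-nt one and a 62-nt exon absent from the annotation. Annotated exons of 12 to 19 nt in this stretch were missing from the chain, as was an annotated 39-nt exon at chr7:142507750-142507788. Mff, the mitochondrial fission factor, had 13 chains that together held 52.8% of its 108 reads in replicate 1 and 52.3% of its 216 reads in replicate 2. They all used annotated introns in new pairings, and the largest had 15 reads in replicate 1 and 46 in replicate 2.

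The 14 genes with at least 5 chains were Myl1 (24), Atp2a1 and Tnnt3 (14 each), Eno3 and Mff (13 each), Ktn1 (8), Pde4dip and Trdn (7 each), Card19 (6), and Acta1, Ckm, Mef2c, Myh4 and Oaz1 (5 each). Their chains held very different parts of the gene. In Atp2a1, the fast calcium pump, the 14 chains had 130 of 87684 reads in replicate 1 and 115 of 48342 in replicate 2. In Ktn1, a kinesin-binding protein, 8 chains held 43.8% of its reads for replicate 1 and 45.5% for replicate 2, and in Mef2c, a muscle transcription factor, 5 chains held 31 of 117 reads in replicate 1 and 41 of 164 in replicate 2. Myh4, the IIb myosin heavy chain, has near-identical neighbours in a gene cluster. A Myh4 chain of the set, with only 9 reads in replicate 1 and 11 in replicate 2, held an intron of 159608 nt, and its placement is uncertain for that reason.

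Retained introns were few and short: 22 chains with a median retained intron of 186.5 nt (79 to 936 nt), against 1255 nt for annotated introns of covered genes. Ttn, the giant protein titin, gave 78 reads in replicate 1 and 31 in replicate 2 on a chain of 4 introns at the 3′ end that retained a 156-nt intron, whose place differs by a few bases among annotated models, and skipped a 303-nt exon. It held 27.3% of the gene in replicate 1 and 6.39% in replicate 2. Ankrd23, an ankyrin repeat protein that binds titin, gave 23 reads in replicate 1 and 24 in replicate 2 with a retained intron of 104 nt (1.86% and 0.995%) and 7 reads in replicate 1 and 15 in replicate 2 with one of 87 nt. Myoz1, a Z-disc protein that binds calcineurin, gave 21 reads (0.689%) in replicate 1 and 27 (0.479%) in replicate 2, Acta1 gave 19 reads (0.0317%) in replicate 1 and 13 (0.0133%) in replicate 2, and Atp2a1 gave 14 reads (0.0160%) in replicate 1 and 7 (0.0145%) in replicate 2.

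**Figure D4:**
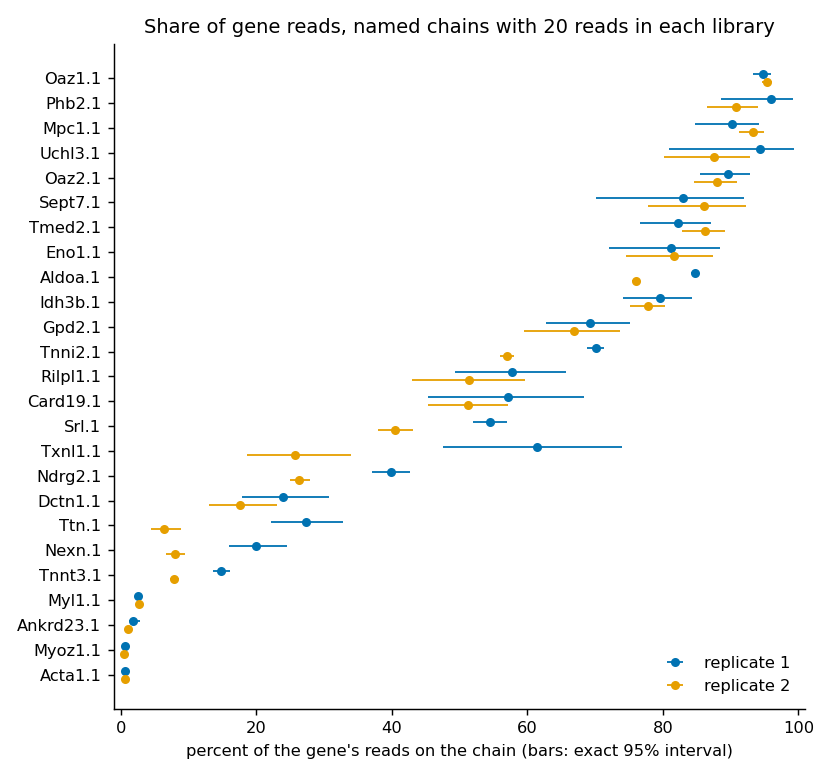
Percent of its gene's reads held by each of the named chains with at least 20 reads in each library (x axis), with 1 dot per library and exact 95% intervals for counting error. Oaz1, Phb2, Mpc1, Uchl3 and Oaz2 lie above 87% in both libraries, while Aldoa, Tnni2, Srl, Txnl1, Ndrg2, Ttn, Nexn and Tnnt3 lie higher in replicate 1 with separate intervals.

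The reading frame was followed from the annotated start codon with most reads that lay in the chain. It could be followed in 967 chains, since 100 held no annotated start and 90 held bases outside annotated exons. An annotated stop codon was reached in 702 (72.6%). In 202 (20.9%) a stop came more than 50 nt before the last junction, a position known to mark transcripts for nonsense-mediated decay, 59 ended at another stop and 4 met none. Annotated stops were reached in 58.1% of exon skips, 76.9% of alternative ends and 74.5% of new pairings. Of the reads on chains with a followed frame, those that reached an annotated stop held 72.6% in replicate 1 and 65.3% in replicate 2. The largest Aldoa chain reached one, and the 3 Aldoa chains together held 42.0% of the whole set's reads in replicate 1 and 36.3% in replicate 2. The early stops with most reads were those of Tnni2, Oaz1, Myl1, Mpc1 and Oaz2, which differ from annotated models by a tiny exon, a shift site or a second short exon.

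**Figure D5:**
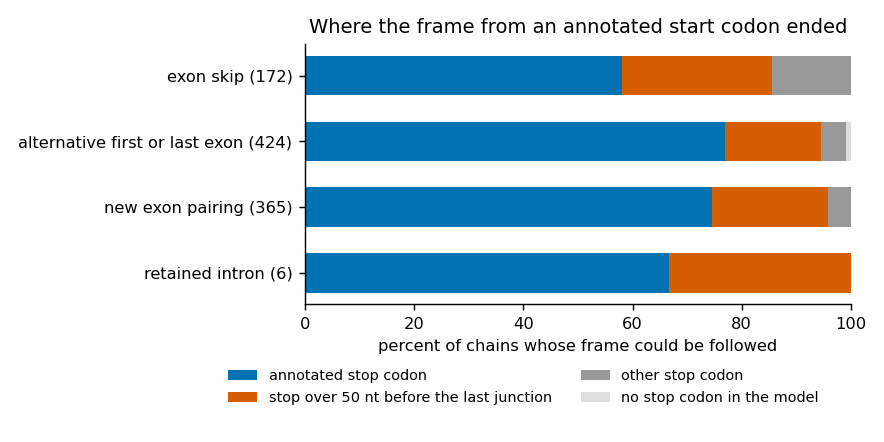
Percent of chains (x axis) by the stop codon at which the frame from an annotated start codon ended, for each class with the number of chains followed in brackets. Annotated stops made up 58.1% in exon skips and 76.9% in alternative ends, and the retained-intron bar rests on 6 chains.

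Each chain's share of its gene's reads was compared between the libraries by Fisher's exact test, two-sided and with Benjamini-Hochberg adjustment over all 6185 chains that had 10 reads or more in a covered gene. Calls were made at an adjusted p below 0.05 together with a gap of 5 percentage points. Of 503 chains of the set tested, 27 were called, 5.37% against 8.02% of all chains and 7.95% of those with a read in both libraries. In 25 of them the share was higher in replicate 1 and in 2 higher in replicate 2, where the background was 6.9% and 1.04%. Incomplete models (ISM, an unbroken part of an annotated chain) and Genomic models (reads that overlap a gene and meet no other class) took 14.9% of reads in replicate 1 and 22.4% in replicate 2. With these models left out of the gene totals, 8 of 457 chains were called, against a background of 1.35%, and 6 of the 8 were among the 27.

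The 6 called with and without incomplete models were Aldoa, Ttn, Tnnt3 and Txnl1 and a pair of Mybpc1 chains. Aldoa's share was 8.68 points higher in replicate 1 (adjusted p = 3.59e-89, Fisher's exact test) and 5.34 points higher without incomplete models. Ttn's share was 20.9 points higher (adjusted p = 2.49e-13, Fisher's exact test), and 52.5 points without incomplete models. Txnl1, a thioredoxin-like protein, had 35 reads in each library, which were 61.4% of its gene in replicate 1 and 25.7% in replicate 2 (adjusted p = 1.57e-04, Fisher's exact test). Mybpc1, the slow form of myosin-binding protein C, had chains called in each direction. One chain had 30 reads (33.3%) in replicate 1 and 42 (6.08%) in replicate 2. Another, with 36-nt and 39-nt exons outside the annotation, had 1 read (1.11%) in replicate 1 and 163 (23.6%) in replicate 2 (adjusted p = 3.40e-07, Fisher's exact test). Slow-fibre genes took more reads in replicate 2, as given above, and the Tnni1 chain had 3 reads in replicate 1 and 459 in replicate 2, but their part in this difference was not tested.

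Called only without incomplete models were Pacsin3, a membrane-bending protein, with a share 19.0 points higher in replicate 1, and Dctn1, with a share -31.7 points apart (replicate 1 minus replicate 2). For Dctn1 the difference over all reads was 6.27 points. Of the other 21 of the 27 chains, 15 were not called without incomplete models, and 6 could not be tested there for want of reads, among them Cdh13, Usp28 and Mylk4. The difference of Tnni2 was then 1.58 points and that of Ndrg2 6.25 points, while that of Srl turned to -3.50 points and that of Nexn to -1.60 points. Cdh13, a cadherin anchored to the membrane by a lipid, had 1 read in replicate 1 and 42 in replicate 2 (0.893% and 25.9%, adjusted p = 4.16e-08, Fisher's exact test). The largest differences toward replicate 1 lay in genes with few reads. Usp28, a deubiquitinase, had 27 reads (65.9%) in replicate 1 and 8 (26.7%) in replicate 2. Camk2d, a calcium-dependent kinase, had 23 reads (56.1%) in replicate 1 and 10 (20.8%) in replicate 2. Mylk4, a kinase of the myosin light chain kinase family, had 19 reads (31.1%) in replicate 1 and 3 (2.78%) in replicate 2. Their adjusted p-values by Fisher's exact test were 0.0197 for Usp28, 0.0122 for Camk2d and 9.24e-06 for Mylk4.

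By function, 68 chains lay in 15 sarcomere genes, among them 13 of the 22 covered ones, where 18.6% of all covered genes had a chain. The rule asks for reads, so genes with many reads can reach it more easily. The sarcomere list held 198315 of the 797105 reads of annotated genes in replicate 1. The 68 chains held 2.84% of the list's reads in replicate 1 and 2.65% in replicate 2, with Tnni2, Myl1, Tnnt3 and Acta1 in front. Z-disc and cytoskeleton genes had 17 chains in 11 genes, among them 10 of the 21 covered ones, led by Myot, or myotilin, with 30 reads in replicate 1 and 94 in replicate 2, and Synpo2, an actin-binding protein, with 43 reads in replicate 1 and 33 in replicate 2. Calcium release and membrane genes had them in 8 of 24 (31 chains), and after Srl came Jsrp1, a junctional protein of the sarcoplasmic reticulum, with 38 reads in replicate 1 and 69 in replicate 2. Energy genes had 34 chains in 14 genes, among them 12 of the 30 covered ones, led by Aldoa and Eno3.

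RNA-binding and splicing genes had 18 chains in 11 genes, among them 9 of the 22 covered ones, with 16.7% of the list's reads in replicate 1 and 6.38% in replicate 2. Mbnl2 led, and Hnrnpk, an RNA-binding protein, followed with 36 reads in replicate 1 and 54 in replicate 2 on its first chain (34.0% and 21.1%). Cytosolic ribosome and translation genes had them in 8 of 88 (12 chains, 9.09% of genes), with 0.512% of the list's reads in replicate 1 and 0.343% in replicate 2. Eef1d, a subunit of the elongation factor exchange complex, led them with 41 reads (53.2%) in replicate 1 and 97 (42.0%) in replicate 2. Long genes with many exons can form more chains than short ones, and neither length nor read depth was adjusted for in these counts.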

How the data were processed

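Long-read RNA-seq of 2 libraries of 1 group was used. For each library the authors deposited raw counts of reads for every transcript model, with a TALON annotation on mm10 with GENCODE M21, as named in the README beside the files. Coordinates are the authors' deposited starts and ends. Aligner, read correction, filters and tool versions: not given in the sources used here. Models were matched between libraries by chromosome, strand and introns, and spike-in models were left out. No count was normalised, and shares are of a gene's reads.

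Fisher's exact test (scipy 1.17.1, two-sided) was used with Benjamini-Hochberg adjustment over all chains or exons. Intervals are exact (Clopper-Pearson, 95%) and, like the limits for a count of 0, cover counting error only. Reading frames and printed sequences use the GENCODE M21 transcripts. No genome sequence was used, so splice dinucleotides were not analysed here.

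The chains, gene lists and rules were chosen with earlier results of these data known. Named chains are the 6 of each class with the highest smaller count, the 10 with the highest mean share of their gene, the 4 called chains with the largest difference in each direction, genes with at least 5 chains, and up to 4 examples per gene list. Other named chains were chosen after their values were seen. Alternatives changed the minimum of reads, the need for both libraries, the annotated chains compared and the models counted.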

Additional observations from a re-analysis of the deposited data

Results flagged for a closer look

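As many as 346 chains were NIC in 1 library and of another class in the other, and so lay outside the set. They held 3674 reads in replicate 1 and 6430 in replicate 2. Of them, 155 were NNC in replicate 1 and NIC in replicate 2, 132 were NIC in replicate 1 and NNC in replicate 2, 30 were ISM in replicate 1 and 25 were ISM in replicate 2. The largest lay in Bin1, with 299 reads in each library, and in Tnnt3, with 266 reads in replicate 1 and 511 in replicate 2. They were singled out because they carry reads in both libraries and lie outside the set described, although those with enough reads entered the test over all chains.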

How the results depend on the processing

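The number of chains, 1157 at a minimum of 5 reads, was 1817 at 3 reads, 586 at 10 and 276 at 20. Retained introns made up 3.08% of the chains at 3 reads, and alternative ends 36.0%. Exon skips made up 16.4% at 10 reads and 14.5% at 20, and new pairings 43.1% at 20. With no need of both libraries, alternative ends made up 33.9% and new pairings 47.3%. Against annotated chains with a read only, exon skips made up 24.0%, alternative ends 8.21% and new pairings 65.4%. As a mean of both libraries, and as a setting chosen after the data were seen, leaving out Aldoa gave retained introns 1.04% of reads, skips 31.8%, ends 40.7% and pairings 26.4%, and leaving out Tnni2 gave skips 7.71%, ends 73.2% and pairings 18.4%. Without either replicate, the range was 0.451% to 0.793% for retained introns, 17.6% to 21.2% for skips, 62.4% to 65.4% for ends, 15.8% to 16.2% for pairings, and 2.64% to 3.62% for the set's share of mouse reads. Without incomplete and Genomic models, 8 chains of the set were called in place of 27, and 56 of all chains in place of 496, and 1 skipped exon, of Trdn, in place of 0. The share difference there was -3.50 points for Srl (adjusted p = 0.707, Fisher's exact test) and -1.60 points for Nexn (adjusted p = 1, Fisher's exact test). The cause of these changes was not tested. At 10 reads, 45.5% of single skipped exons were a multiple of 3 in length. At a minimum difference of 10 points, Aldoa and Tnnt3 were not called. No paired analysis was possible because both libraries belong to 1 group. At the median depth of 4 and 6 reads, most chains allow no comparison between libraries.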
